A study of Mus musculus with 23 samples.

Results

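The regions described here are 213 stretches of the mouse genome that carried an open-chromatin peak in adult and geriatric duodenal epithelium, in villus and crypt fractions alike, and in no library of juvenile duodenum or of colon. They were chosen from the peak calls themselves. The peaks of 23 libraries were merged wherever they shared at least 1 bp into 149024 regions. A region became a member if it held a peak in at least 5 of 6 villus libraries, at least 5 of 6 crypt libraries, 0 of 3 juvenile duodenum libraries and 0 of 8 colon libraries. The presence of these regions in later duodenum and their absence from juvenile duodenum and colon are therefore set by the choice of members, and are described below without a test. The rule asked the same of villus and crypt libraries and of geriatric and adult ones, so it set no direction between them, but it did use their calls: no compartment could lack a member in more than 1 library.

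The study compared chromatin accessibility of the mouse intestinal epithelium by ATAC-seq, an assay in which a transposase inserts sequencing adapters into DNA that is not covered by nucleosomes, across 3 ages and along the gut. The libraries that had to hold a peak were villus epithelium of the duodenum at 21 months (geriatric, 3 libraries) and 90 days (adult, 3 libraries), and crypt epithelium of the duodenum at 21 months and at 90 days (3 libraries each). The libraries that had to lack one were the whole duodenal epithelium at 12 days (juvenile, 3 libraries), the colon epithelium at 15 days (3 libraries, each from 6 pooled animals), the colon epithelium at 90 days (3 libraries, each from 2 pooled mice) and the proximal colon epithelium at 21 months (2 libraries, each from 2 pooled mice). All were released from the gut wall with EDTA. Villi were kept back by a cell strainer that crypts passed, so juvenile duodenum differs from the later libraries in age and also in being unfractionated, and age and fractionation cannot be told apart for any region that is absent from juvenile duodenum. The labels used here give neither strain nor genotype, and the epithelial identity of the libraries was not checked against marker genes because no gene annotation of the build of the files was used.

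The duodenum is the first stretch of the small intestine. Its crypts hold the stem cells and dividing progenitors, and its villi hold the differentiated cells, mostly absorptive enterocytes, that arise from them and move upward. In mice the epithelium changes at weaning, when milk gives way to solid food: the neonatal enterocyte, which takes up milk proteins whole and expresses lactase strongly, is replaced by an enterocyte that expresses sucrase-isomaltase and arginase 2, and crypts deepen and come to hold Paneth cells. Mice at the juvenile ages sampled here are still suckling, and both later ages are long past weaning. An ATAC-seq peak away from a gene start often marks an enhancer, a stretch of DNA bound by transcription factors that can raise the expression of a gene at a distance. Which genes lie near the members was not analysed here, so they are named by their position in mouse build mm9.

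The juvenile duodenum lists held 45258 to 52365 peaks from 16.7 to 22.9 M reads kept after duplicate filtering (M, mega). The 12 villus and crypt libraries held 35105 to 60519 peaks from 14.4 to 40.5 M reads. The median of reads kept was 18.2 M in juvenile duodenum and 23.1 M in the 12 libraries. The colon lists were shorter, with 11355 to 32855 peaks from 20.5 to 47.9 M reads kept. An absent colon peak thus came from shorter lists. The part of list length and depth in the juvenile and colon conditions was not tested.

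Absence from juvenile duodenum was uncommon among regions that adult and geriatric duodenum share, and it went with absence from colon. The 12 libraries shared 18168 regions at the same thresholds (at least 5 of 6 villus and 5 of 6 crypt libraries), which serve as the background below. Of the 2453 shared regions without any colon peak, 213 (8.68%) had no juvenile peak, 189 (7.70%) had a peak in 1 juvenile library, 270 (11%) in 2 and 1781 (72.6%) in all 3. Of the 15715 shared regions with a colon peak, 361 (2.30%) had no juvenile peak and 13808 (87.9%) had a peak in all 3. Seen from the other side, 213 of the 574 shared regions without a juvenile peak (37.1%) had no colon peak either, against 11.4% of the 15589 with a peak in all 3 juvenile libraries. The 1781 regions with a peak in all 3 juvenile libraries and none in colon are called lifelong duodenal regions here and are the set most like the members.

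**Figure D1:**
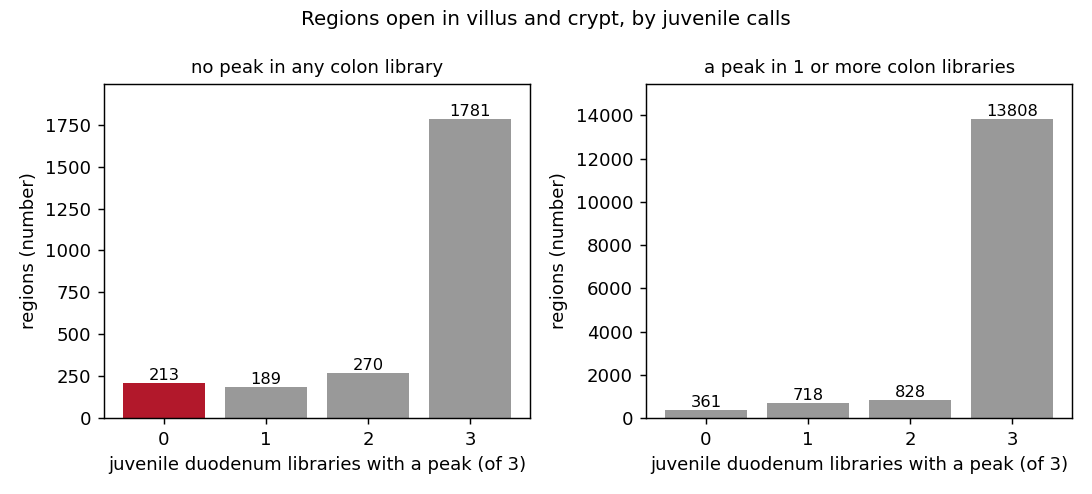
Number of regions shared by the adult and geriatric villus and crypt libraries (vertical axes, on different scales), by the number of juvenile duodenum libraries with a peak (horizontal axis), for regions without a colon peak (left) and with one (right). The members are the red bar, 213 of 2453 regions (8.68%), against 361 of 15715 regions (2.30%) with a colon peak.

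The rule itself asked for a peak in at least 10 of the 12 later libraries. Of the 213 members, 82 had a peak in all 12 libraries, 99 in 11 and 32 in 10, the lowest number the rule admits. In this way 2393 of the 2556 possible peaks were present. A peak in all 12 libraries was less common among members than among shared regions, where about 13360 of 18168 had one. The missing peaks were unevenly spread. The geriatric villus libraries lacked 14, 9 and 27 members, the adult villus libraries 1, 2 and 13, the geriatric crypt libraries 6, 25 and 13, and the adult crypt libraries 3, 46 and 4. Adult crypt replicate 2 was thus the library that most often lacked a member, and adult villus replicates 1 and 2 and adult crypt replicate 1 almost never did.

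Just outside the rule lay 202 regions with 4 of 6 libraries in a compartment, 189 regions whose only fault was a peak in 1 juvenile library, and 83 whose only fault was a peak in 1 colon library. The single juvenile peaks were modest: ranked by −log10 p within their own list, where 100 is the strongest peak, they had a median percentile of 24.8 (quartiles 14.2 and 40.4). The single colon peaks had a median of 20.7. The members' own peaks, ranked in the same way, had a median between 45.3 and 63.0 in each of the 12 libraries, so members were mid-ranking peaks within a list, while lifelong duodenal regions had medians between 55.7 and 72.7. Juvenile replicate 2 held 87 of the 189 single juvenile peaks and replicates 1 and 3 held 47 and 55, and adult colon replicate 3 held 36 of the 83 single colon peaks.

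Members were weaker, and as merged regions narrower, than other regions shared by the same libraries. To set libraries beside each other, each member's peak was ranked by −log10 p against the regions with a peak in all 12 libraries, giving a percentile per library on which 0 stands for no peak. The mean percentile over the 12 libraries had a median of 17.4 over the members (lowest 3.08, quartiles 11.1 and 25.5, highest 82.3), against 26.1 over lifelong duodenal regions and 37.3 over all shared regions. Only 8 members (3.76%) had a mean above 50, against 226 lifelong duodenal regions (12.7%) and 6217 shared regions (34.2%). The part of peak strength in the missing juvenile and colon calls was not tested.

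On the scale of the authors' fold enrichment over local background, a member's peaks lay between 2.67 and 15.1, with a median of 6.10, and their pileup, the height of overlapping fragments at the summit, lay between 6 and 73 with a median of 17. The median fold enrichment per region was 6.13 over the members (4.20 to 12.0), 6.86 over lifelong duodenal regions and 7.44 over shared regions. Members had a median width of 493 bp, with quartiles of 408 and 615 bp and a range of 222 to 1794 bp. Lifelong duodenal regions had a median of 525 bp, shared regions of 660 bp and the 5226 regions with a peak in all 23 libraries of 841 bp. In 55 members (25.8%) at least 1 library split the region into several peaks, against 27.1% of lifelong duodenal regions and 46.5% of shared regions. A merged region spans the peaks of every library that called it, and the rule keeps juvenile and colon peaks out of the members. Widths and split shares thus depend in part on how many libraries could call a region, and that part was not tested. The summit, the highest point of the peak, was placed within a median span of 137 bp across the libraries that called a member, against 122 bp for lifelong duodenal regions.

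Members and lifelong duodenal regions both lay farther from the regions that were open everywhere than shared regions did, by the median. The nearest region with a peak in all 23 libraries was a median of 135 kb from a member, 112 kb from a lifelong duodenal region and 78.7 kb from a shared region. The upper quartiles were 312 kb for members and 319 kb for lifelong duodenal regions. Such a region lay within 10 kb of 14 members (6.57%), against 7.58% of lifelong duodenal regions and 8.29% of shared regions. The nearest summit of a juvenile duodenum peak was closer, at a median of 10.7 kb. It lay within 1 kb of 10 members, within 5 kb of 57 (26.8%), within 10 kb of 101 (47.4%) and within 50 kb of 181 (85.0%). The share of members with a juvenile peak nearby thus follows the distance chosen. The nearest colon summit was at a median of 13.7 kb and within 1 kb of 10 members. Without the members that had a juvenile or colon summit within 1 kb, 195 remained.

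Every autosome held members. Chromosome 10 held 18, chromosome 11 held 17, chromosomes 8 and 13 held 16 each and chromosome 2 held 15. Chromosome 1 held 6 (2.82%), against 7.30% of lifelong duodenal regions, and chromosome X held 2. Chromosome 11 held 7.98% of the members, against 3.71% of lifelong duodenal regions and 6.86% of shared regions. The other members of the set were usually remote, the nearest being a median of 2497 kb away. Still, 17 members (7.98%) had another within 100 kb, against 4.21% of lifelong duodenal regions and 3.05% of shared regions with a member that near. These 17 made 8 groups, 7 pairs and 1 trio, on chromosomes 2, 5, 8, 11, 13 and 15, with 2 groups each on chromosomes 8 and 13.

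A larger share of the members was among the strong peaks of villus than of crypt libraries, but the difference did not pass the adjusted test. So that list length would not differ, only the top 35105 peaks of each of the 12 lists by −log10 p were kept, as many as the shortest list holds. The share of the 213 members still covered was 93.4, 90.6 and 81.2% in geriatric villus replicates 1 to 3, 88.3, 83.1 and 81.2% in adult villus, 71.4, 80.3 and 85.4% in geriatric crypt, and 77.5, 77.9 and 80.3% in adult crypt. All 6 villus libraries lay above 5 of the 6 crypt libraries, and geriatric crypt replicate 3 stood among the villus values. Villus averaged 86.3 ± 5.20% and crypt 78.8 ± 4.61% (SD, n = 6 each), a difference of 7.51 percentage points (SE 2.84). A 2-sided exact permutation test over the libraries gave p = 0.0281, which became 0.113 after Benjamini-Hochberg adjustment over the 4 comparisons made on these shares, so the difference did not pass at 0.05. That test took the 12 libraries as independent. With same-numbered villus and crypt libraries as blocks, an exact sign-flip test gave p = 0.0938. The limit of 35105 is the whole list of geriatric villus replicate 1, where all 199 called members remained, and nearly the whole list of adult crypt replicate 2, where 166 of 167 remained. The shares of these 2 libraries, the highest villus value among them, are therefore the calls that the rule used. With lists of 17552 peaks, below the length of every list, the difference was 12.1 points (exact permutation p = 0.00216). Leaving out geriatric villus replicate 1 gave 6.09 points with an exact p of 0.0584, and leaving out geriatric crypt replicate 1 gave 6.02 points with an exact p of 0.0541.

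**Figure D2:**
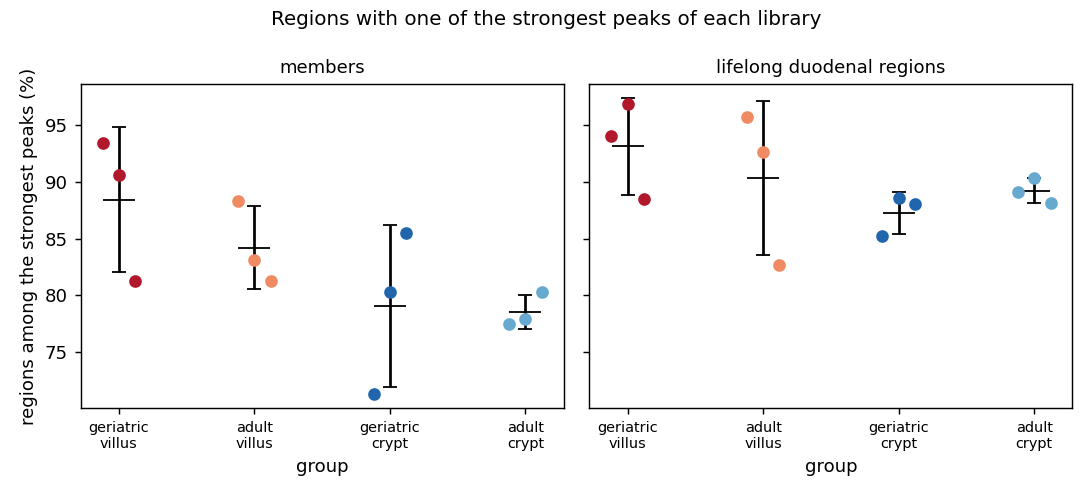
Percent of members (left) and of lifelong duodenal regions (right) that hold one of the 35105 strongest peaks of each library (vertical axis, which does not start at 0), by group (horizontal axis); points are libraries and bars are mean and SD of 3. Members lie at 81.2 to 93.4% in villus and 71.4 to 85.4% in crypt, and lifelong duodenal regions lie higher in both compartments on average.

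The lean to villus was not shown to be particular to the members. Lifelong duodenal regions had 91.7 ± 5.28% of their number among the strongest peaks in villus and 88.2 ± 1.72% in crypt (SD, n = 6 each). The share of members minus that of lifelong duodenal regions was therefore −5.41 ± 3.58 points in villus and −9.44 ± 4.08 points in crypt. This gap differed between the compartments by 4.03 points (SE 2.22), with an exact permutation p of 0.0996 and 0.199 after adjustment. Measured by the median percentile over the regions in place of the share, members stood at 15.7 ± 2.46 in villus and 10.1 ± 1.04 in crypt (SD, n = 6 each). That difference of 5.67 had an exact p of 0.00216, the smallest that 6 against 6 libraries allow. Lifelong duodenal regions differed by about as much on this scale, with 26.2 ± 1.92 in villus and 19.98 ± 2.55 in crypt, and the difference between the 2 sets was −0.553 (exact p = 0.762).

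**Figure D3:**
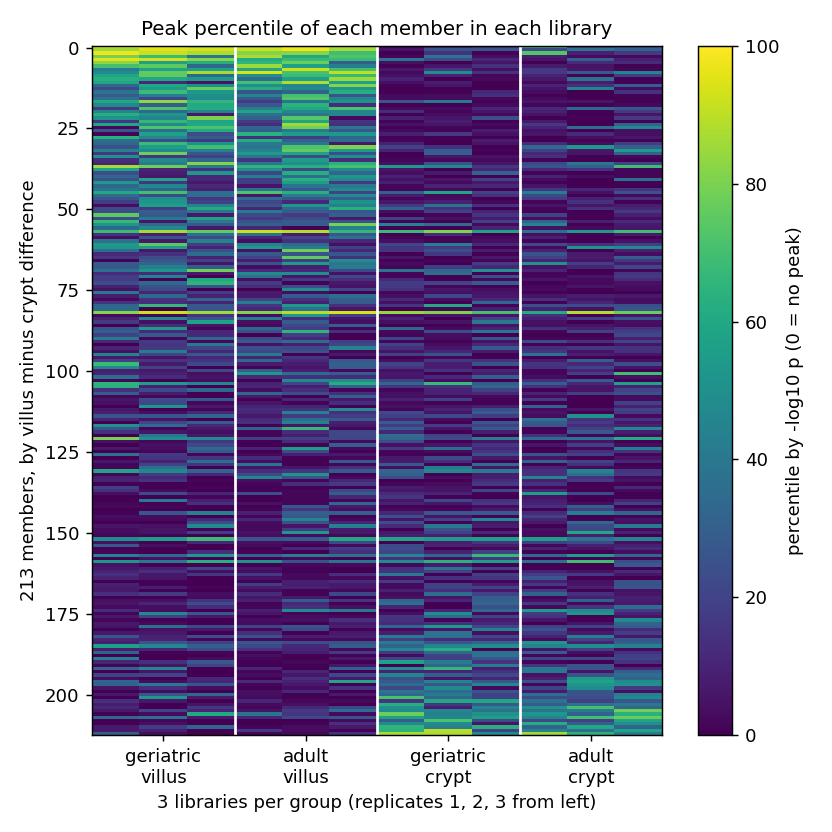
Percentile by −log10 p of each of the 213 members (rows, ordered from the highest villus minus crypt difference at the top) in each of the 12 villus and crypt libraries (columns), on a colour scale from 0 (no peak) to 100. Most cells are dark, in keeping with a median mean percentile of 17.4, and few rows are bright in all 4 groups.

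Member by member, the lean was mixed. The villus mean minus the crypt mean of the percentile had a median of 4.81 over the members, with quartiles of −4.44 and 21.4 and a range from −60.7 to 67.7. It was above 0 in 127 members (59.6%), against 58.3% of lifelong duodenal regions and 48.5% of shared regions. In 22 members (10.3%) all 6 villus libraries stood above all 6 crypt libraries, against 8.82% of lifelong duodenal regions and a background of 4.81% of shared regions. In 7 members (3.29%) all 6 crypt libraries stood above all 6 villus libraries, against 3.37% of lifelong duodenal regions and a background of 4.53%. Both shares were close to those of lifelong duodenal regions.

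The authors' deposited tables of regions that differ between groups were used as lists, with any overlap of 1 bp counting. The authors' deposited table of regions higher in adult villus than adult crypt held 8 members (3.76%; background 1.2% of shared regions). The authors' deposited table for geriatric villus over geriatric crypt held 12 (5.63%; background 2.32%). In the opposite direction the authors' deposited tables held 4 members for adult crypt over adult villus (1.88%; background 1.45%) and 0 for geriatric crypt over geriatric villus (background 0.396%). Lifelong duodenal regions were listed at 2.41% in the adult and 4.72% in the geriatric table with villus higher. In the tables with crypt higher they were listed at 1.29% (adult) and 0.337% (geriatric). In all, 15 members were listed as higher in villus at some age, 5 of them at both ages, 4 as higher in crypt, and 194 as neither. Of the 22 members whose villus libraries all stood above their crypt libraries, the authors' deposited tables listed 11 in that direction, and of the 7 with the opposite order they listed 1.

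**Figure D4:**
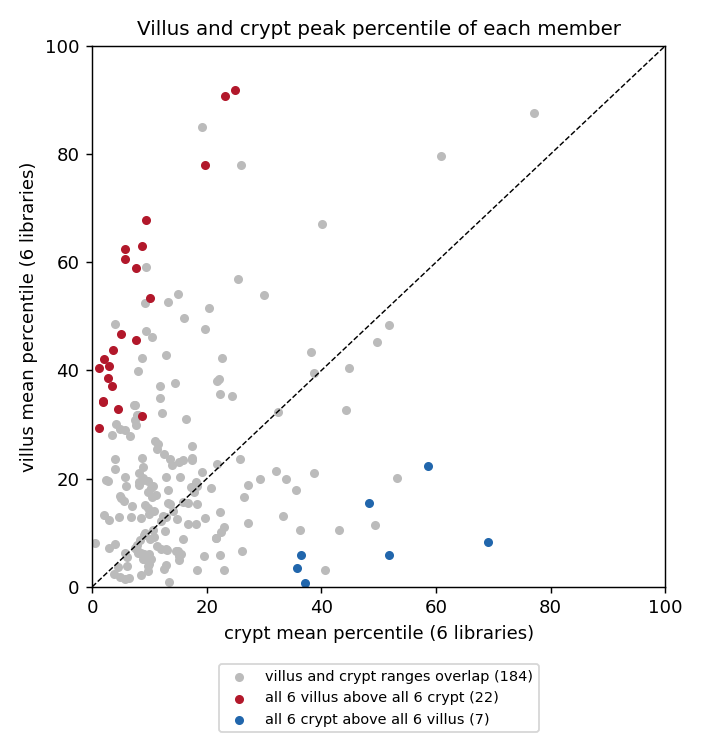
Villus mean percentile (vertical axis) against crypt mean percentile (horizontal axis), 6 libraries each, of the 213 members, 1 point per member; the dashed line marks equal values. The 22 members whose villus libraries all stood above their crypt libraries are red, the 7 with the opposite order are blue, and most of the remaining 184 lie toward the origin.

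The named members that leaned most to villus had middle to high percentiles in the villus libraries and low ones in most crypt libraries. The region chr8:95554354-95554923, 570 bp wide, stood at percentiles of 93.9, 94.7 and 86.4 in geriatric villus, 85.5, 96.6 and 87.6 in adult villus, 2.90, 10.1 and 15.4 in geriatric crypt and 65.0, 18.8 and 26.6 in adult crypt. Every villus library lay above every crypt library, and adult crypt replicate 1 was the highest crypt library by far. Villus averaged 90.8 ± 4.79 and crypt 23.1 ± 22.0 (SD, n = 6 each), a difference of 67.7.

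The region chr2:103253492-103254028, 537 bp wide, was steadier in crypt. It stood at 85.5, 95.3 and 94 in geriatric villus, 92.4, 97.8 and 86.5 in adult villus, 5.10, 26.0 and 26.4 in geriatric crypt and 22.2, 38.2 and 31.5 in adult crypt. The compartments were far apart, with villus at 91.9 ± 4.93 and crypt at 24.9 ± 11.2 (SD, n = 6 each), a difference of 67, and no crypt library came within reach of the villus values.

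The region chr18:58633279-58633937, 659 bp wide, stood at 97.7, 91.6 and 87.7 in geriatric villus, 81.4, 82.3 and 69.4 in adult villus, no peak, 14.5 and 1.15 in geriatric crypt and 73.8, 8.88 and 16.7 in adult crypt. Here the compartments overlapped, because adult crypt replicate 1 exceeded adult villus replicate 3. The difference was 65.8, with villus at 85.0 ± 9.74 and crypt at 19.2 ± 27.6 (SD, n = 6 each). The region chr6:91980475-91981197, 723 bp wide, had lower villus values of 79.6, 68.6 and 39.4 (geriatric) and 87.1, 59.4 and 72.4 (adult), against 1.42, 38.2 and 3.69 in geriatric crypt and 7.52, 3.08 and 2.66 in adult crypt. Of its crypt libraries, 5 were close to the weakest end of the scale, and geriatric crypt replicate 2 nearly reached geriatric villus replicate 3. The region chr10:67248032-67249162, at 1131 bp much wider than the median member, averaged 77.9 ± 14.7 in villus and 19.7 ± 13.1 in crypt (SD, n = 6 each), and its geriatric villus values of 95.9, 93.5 and 82.0 all lay above its adult villus values of 61.2, 67.4 and 67.7.

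The members that leaned to crypt were fewer. The region chr5:8132551-8133078, 528 bp wide, was the strongest of them and stood at 29.4, 3.54 and no peak in geriatric villus, 1.38, 1.99 and 13.8 in adult villus, 87.3, 88 and 47.6 in geriatric crypt and 86.1, 63.3 and 41.9 in adult crypt. All crypt libraries lay above all villus libraries, with means of 8.35 ± 11.4 in villus and 69.0 ± 21.0 in crypt (SD, n = 6 each), a difference of −60.7. It also held the highest fold enrichment of any member peak, 15.1. The region chr10:110892897-110893270, 374 bp wide, averaged 10.5 ± 8.23 in villus and 43.1 ± 20.8 in crypt (SD, n = 6 each), but geriatric crypt replicate 2, at 8.55, fell among its villus values. The other members listed by the authors as higher in adult crypt were chr6:94705151-94705819, with 11.8 ± 9.68 in villus and 27.2 ± 13.8 in crypt, and chr7:139014149-139014746, with 8.95 ± 16.4 in villus and 21.5 ± 2.58 in crypt (SD, n = 6 each). The crypt libraries of the chr7 region were alike, between 19.0 and 26.5, while its villus libraries were all below 7 except geriatric villus replicate 1 at 42.1.

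Besides the chr5 region, 6 members had all crypt libraries above all villus libraries without being listed by the authors as higher in crypt. They were chosen after their values were seen, and 1 of them, on chromosome 2, is described below with its neighbours. The region chr4:47164524-47165037 was almost absent from villus, with a mean of 0.773 ± 0.973 against 37.1 ± 22.1 in crypt (SD, n = 6 each), and stood in none of the authors' deposited tables. The region chr13:115986238-115986683 averaged 5.81 ± 5.88 in villus and 51.8 ± 24.1 in crypt, and chr6:114358130-114358732 averaged 3.56 ± 3.13 in villus and 35.7 ± 15.9 in crypt. The regions chr15:61770779-61771259 (villus 5.91 ± 5.41, crypt 36.5 ± 19.8) and chr8:112532421-112532951 (villus 22.3 ± 11.9, crypt 58.6 ± 12.6) completed this set. The last of these kept a clear villus peak, whereas the chr4 region was near the limit of calling there.

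A few members were strong in both compartments. The strongest of all, chr13:114187348-114187890, 543 bp wide, stood at 81.9, 92.7 and 86.2 in geriatric villus, 81.1, 88.9 and 94.4 in adult villus, 84.3, 80.6 and 70.3 in geriatric crypt and 61.5, 88.5 and 77.0 in adult crypt. Villus averaged 87.5 ± 5.49 and crypt 77.0 ± 9.81 (SD, n = 6 each), with overlapping libraries, and its median fold enrichment of 12.0 was the highest of any member. Next came chr12:17499345-17500182, 838 bp wide, with 79.7 ± 11 in villus and 60.9 ± 15.1 in crypt (SD, n = 6 each), whose nearest juvenile summit was 3.12 kb away. The region chr6:140128502-140128999, with 45.3 ± 13.4 in villus and 49.7 ± 17.0 in crypt, and the region chr9:98932139-98932855, with 40.4 ± 7.78 in villus and 44.8 ± 14.2 in crypt (SD, n = 6 each), were about equal in both compartments.

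**Figure D5:**
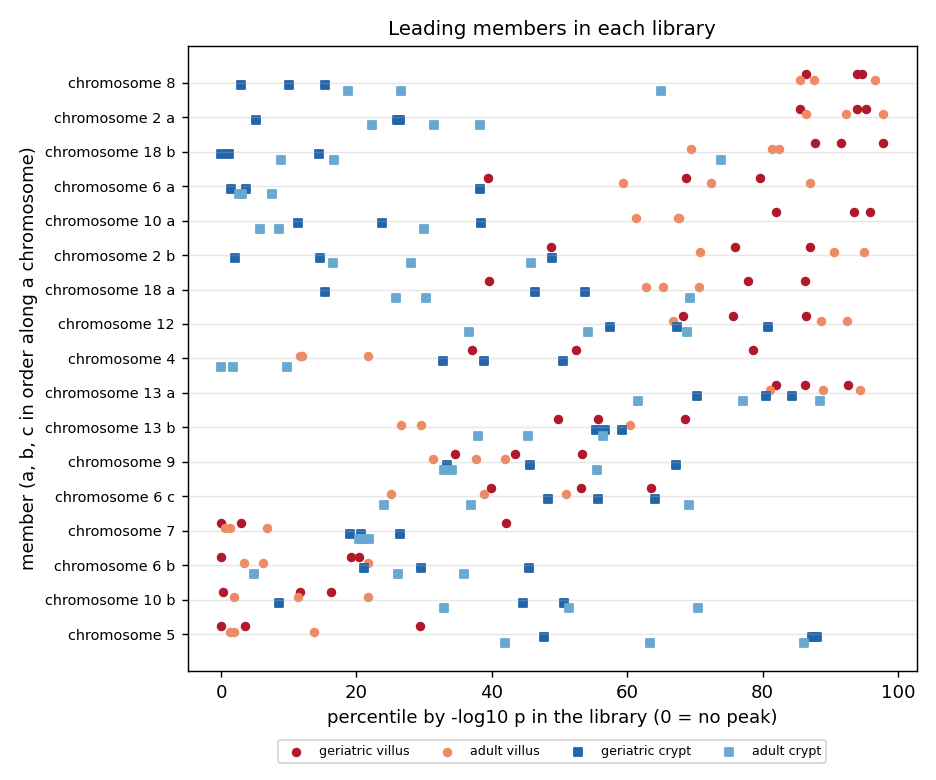
Percentile by −log10 p in each library (horizontal axis, 0 for no peak) of the named members, 1 row per region, labelled by chromosome with letters in order of position; points are libraries, circles for villus and squares for crypt, dark for geriatric and light for adult. The region on chromosome 5 is at 29.4 or below in villus and at 41.9 or above in crypt, and the first region of chromosome 13 lies at 61.5 or above in every library.

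Neighbouring members did not always share a lean. Only some of the 8 groups are described here, without a set rule of choice, and groups that agree or disagree were not counted. On chromosome 2, 3 members lay within a span of 22.3 kb. The middle of them, chr2:178900791-178901196, stood at 48.8, 75.9 and 87.0 in geriatric villus, 94.9, 70.8 and 90.5 in adult villus, 2.14, 48.9 and 14.6 in geriatric crypt and 16.6, 28.1 and 45.8 in adult crypt. The next, chr2:178904858-178905713, was ordered the other way, with 6.41, 20.1 and 9.47 in geriatric villus, 5.30, 16.7 and 35.0 in adult villus, 48.8, 45.7 and 37.2 in geriatric crypt and 38.3, 40.9 and 78.7 in adult crypt. The middle region averaged 78.0 ± 16.9 in villus and 26.0 ± 18.5 in crypt, and its neighbour 15.5 ± 11.2 in villus and 48.3 ± 15.6 in crypt (SD, n = 6 each), so regions a few kilobases apart leaned to opposite compartments. The remaining one, chr2:178882556-178883221, had 26.9 ± 27.8 in villus and 10.9 ± 7.93 in crypt and did not separate the compartments.

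On chromosome 13, the closest pair of members had summits 0.824 kb apart. The region chr13:118686726-118687304 averaged 29.0 ± 18.3 in villus and 5.75 ± 5.42 in crypt, whereas chr13:118687528-118687999 averaged 48.4 ± 17.0 in villus and 51.9 ± 8.32 in crypt (SD, n = 6 each). The region with the lower coordinates was weak in crypt, and the other was even between compartments. On chromosome 11, the widest member, chr11:109582045-109583838 (1794 bp), had 16.7 ± 8.97 in villus and 26.4 ± 16.5 in crypt, and its neighbour chr11:109591182-109591989 had 23.6 ± 17.3 in villus and 13.5 ± 9.12 in crypt (SD, n = 6 each). The partner of the leading villus region on chromosome 8, chr8:95579163-95579500, leaned the same way as it, with 49.7 ± 30.0 in villus and 15.9 ± 20.4 in crypt.

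Between geriatric and adult mice the members as a set did not differ beyond their spread. The share among the strongest peaks was 83.7 ± 7.94% in geriatric and 81.4 ± 3.97% in adult libraries (SD, n = 6 each), a difference of 2.35 points (SE 3.63). With ages permuted within compartments, the exact permutation p was 0.425, also after adjustment. The share of members minus that of lifelong duodenal regions was −6.46 ± 4.65 points in geriatric and −8.39 ± 3.92 points in adult libraries, a difference of 1.94 points (SE 2.48, exact permutation p = 0.415, adjusted 0.425). Whether the villus-crypt difference depended on age gave 3.76 points with an exact permutation p of 0.570. Per member, the geriatric minus the adult percentile had a median of 0.201 and was above 0 in 113 members (53.1%), against 49.6% of shared regions.

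Single compartments gave shares of separated members somewhat above the background for the geriatric direction. All 3 geriatric villus libraries stood above all 3 adult villus libraries in 19 members (8.92%; background 5.26%), and the opposite order held in 14 (6.57%; background 5.41%). In crypt, geriatric stood above adult in 19 members (8.92%; background 5.49%) and adult above geriatric in 12 (5.63%; background 5.6%). In 7 members (3.29%; background 0.506%, lifelong duodenal regions 0.281%) geriatric stood above adult in both compartments, and in 2 (0.939%; background 0.473%) adult stood above geriatric in both. Adult crypt replicate 2, the library that lacked most members, had no peak in 6 of those 7, and its part in that count was not tested.

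The authors' deposited tables of age differences were short, with 37 to 64 regions each, so few regions of any set could be listed. For geriatric over adult crypt the authors' deposited table held 1 member (0.47%, background 0.0385%). The authors' deposited tables held 0 for adult over geriatric crypt (background 0.0165%), 0 for geriatric over adult villus (background 0.0165%) and 0 for adult over geriatric villus (background 0% of shared regions). The listed region, chr4:143622337-143622962, 626 bp wide, is also among the 7. It stood at 37.1, 52.4 and 78.5 in geriatric villus, 11.9, 11.7 and 21.8 in adult villus, 38.9, 32.9 and 50.5 in geriatric crypt and 9.74, no peak and 1.80 in adult crypt. Each geriatric library lay above each adult library of both compartments, with means of 48.4 and 9.49. Chosen after its values were seen, a second of the 7 lay nearby on the same chromosome: chr4:143895434-143896024 stood at 23.5, 33.8 and 64.9 in geriatric villus, 17.4, 0.883 and 6.74 in adult villus, 18, 20.6 and 28.9 in geriatric crypt and 0.15, 2.35 and 4.77 in adult crypt. Its geriatric libraries also lay above all adult libraries, by a mean of 26.2.

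The authors' deposited tables against juvenile duodenum and colon used the contrasts that chose the members, so their counts are a description. The authors' deposited table for adult villus over juvenile duodenum held 145 members (68.1%; background 5.88%) and that for geriatric villus over juvenile duodenum held 141 (66.2%; background 3.89%). They held 3.03% and 1.40% of lifelong duodenal regions. Both tables listed 125 members (58.7%), 1 of them 36, and neither 52, and the authors' tables with juvenile duodenum higher held 0. So 52 members were absent from juvenile peak lists without being listed by the authors as lower there than in villus. None of the authors' deposited tables compared crypt with juvenile duodenum, so a member could not be listed on its crypt signal.

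The members listed in both tables had higher medians in villus than those listed in neither, with wide overlap. Both tables are of regions higher in villus than in juvenile duodenum, so this order is in part set by the tables and is a description. The 125 had a median mean percentile of 20.3 (3.59 to 82.3), with medians of 27.9 in villus and 11.3 in crypt, and 59 of them had a peak in all 12 libraries. The 52 had a median of 12.3 (3.08 to 32.4), with medians of 8.86 in villus and 12.7 in crypt, and 9 of them had a peak in all 12. The strongest member, chr13:114187348-114187890, stood in both tables and in 4 against colon.

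Against colon, the authors' deposited table for adult villus over adult colon held 122 members (57.3%; background 11.6%) and that for adult crypt over adult colon held 99 (46.5%; background 11.1%). The authors' deposited tables against geriatric proximal colon, which had 2 libraries, held fewer: 42 for geriatric villus (19.7%; background 4.13%) and 25 for geriatric crypt (11.7%; background 2.21%). Lifelong duodenal regions were listed more often against adult colon, at 66.8% for villus and 60.9% for crypt. In all, 61 members (28.6%) stood in both authors' deposited tables against juvenile duodenum and in both against adult colon.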

How the data were processed

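ATAC-seq peaks were deposited by the authors for each of 23 libraries. Per the file headers, they were called with MACS2 2.1.0.20150731 (effective genome size 1.87e+09, q below 0.05, background window 10 kb, at most 1 read per position). Per the file headers, each peak has a pileup signal, a −log10 p-value, a −log10 q-value and a fold enrichment (a ratio over local background). The submitters' processing notes name mm9, cutadapt 1.9.1, Bowtie2, SAMtools 0.1.19, Picard 2.18.27, bedtools 2.17.0, deepTools and DiffBind, with no role given, and the authors' 28 deposited tables of differing regions were used as lists only. Peak lists depend on depth and on fragment size, and the percentiles used here rank −log10 p within a library.

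Merging, ranks and exact permutation tests were run in Python 3.11.15 with numpy 2.4.6, and the test code was tested on simulated data. Members and lists were chosen with earlier results of these data known. Named regions were the 10 members with the highest mean percentile among those with a peak in all 12 libraries, up to 5 per direction with the largest villus-crypt difference among those the authors list in that direction, and those in the authors' age tables. Others are said to be chosen after their values were seen, or are described as members of groups within 100 kb, for which no set rule of choice was used. Labels call the libraries replicates and the design counts fewer mice than libraries, so p-values measure only the spread between these samples. The gene lists, cell type markers, sequence motifs and start-site distances that were planned need an mm9 genome or annotation and were not used here, and no sequence is shown.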

Additional observations from a re-analysis of the deposited data

Results flagged for a closer look

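Dixon's test was used in 38 checks for a library far from the other 5 of its compartment, of which chance flags about 1 in 20. The checks covered the percentile by −log10 p of the named regions, the share of members among the strongest peaks, and that share minus the share of lifelong duodenal regions. Of the 38, 4 stood out, all at named regions. At chr18:58633279-58633937, adult crypt replicate 1 stood at 73.8, apart from the other crypt libraries, the highest of which stood at 16.7. At chr6:91980475-91981197, geriatric crypt replicate 2 stood at 38.2, with the other crypt libraries at 7.52 or below. At chr7:139014149-139014746, geriatric villus replicate 1 stood at 42.1, with the other villus libraries at 6.74 or below, and geriatric crypt replicate 3 stood at 26.5, with the other crypt libraries between 19.0 and 21.8.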

How the results depend on the processing

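The number of members follows the definition. Against 213, it was 74 when a peak had to cover 50% of the region (21 of them also members), 114 with peaks of −log10 q of at least 5 (65 shared), 45 with all lists cut to the 11355 peaks of the shortest (2 shared), 82 when all 6 villus and all 6 crypt libraries were required, 484 at 4 of 6 in each, and, added after seeing the data, 574 with no condition on colon. Leaving out single libraries gave 215 to 300. With all duodenum lists at the length of the shortest it was 190, of which 100 were shared.

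The villus minus crypt share (7.51 points) was 12.1 at half-length lists and 5.67 as a difference in median percentile (exact p = 0.00216 for both). It missed 0.05 with full lists, where the rule constrains it (2.43, exact p = 0.578), with 50% cover (20.7, exact p = 0.117) and for members in all 12 libraries (5.89, exact p = 0.0779), and leaving out single libraries gave 6.02 to 8.84. It was 5.63 within adult (exact p = 0.100) and 9.39 within geriatric libraries (exact p = 0.200), where no p can go below 0.100. Replicate numbers were shared by villus and crypt, but the labels do not say that a number marks a mouse. Same-numbered libraries had correlations of −0.045 to 0.131 of their deviations, and differently numbered ones −0.103 to 0.057. These ranges overlap and cannot decide whether the libraries were pairs, so the main test had no block. With a replicate block the difference was 7.51 (exact p = 0.0938). No block was run for the half-length lists or the median percentiles. The members minus lifelong gap in that difference (4.03) was 5.99 at half-length lists (exact p = 0.0368), 4.02 for members in all 12 libraries (exact p = 0.0195), 2.23 with full lists, 0.971 with 50% cover, reversed to −0.553 on median percentiles, and was 3.06 to 5.4 without single libraries, passing without geriatric crypt replicate 3 (exact p = 0.0238). With the block it was 4.03 (exact p = 0.156). The geriatric minus adult share (2.35) reversed to −1.96 with full lists, was 10.25 with 50% cover, 1.33 at half-length lists, 0.61 for members in all 12 libraries, 4.23 within villus and 0.469 within crypt, and 0.743 to 4.26 without single libraries; none of these passed. Its gap to lifelong regions (1.94) reversed to −0.637 with full lists, was 3.64 with 50% cover and 0.042 for members in all 12 libraries, and 0.523 to 3.33 without single libraries. All values with full lists in this paragraph, the reversed ones among them, rest on the calls that the rule used. The share of members in the authors' crypt over villus tables was 1.22% for members in all 12 libraries, against 1.88%. The cause of these changes was not tested. Of 255 alternative values of the named regions' villus minus crypt difference, 225 kept their sign and stayed within 1.5 times, 25 kept their sign beyond that, and 5 changed sign. The sign changes were at 2 regions that were about even between compartments: chr13:118687528-118687999 (−3.43) was 0.876 within geriatric libraries and 0.944 and 0.338 without adult villus replicates 1 and 2, and chr9:98932139-98932855 (−4.39) was 0.085 without geriatric crypt replicate 3 and 34.1 with 50% cover. Among regions listed by the authors, chr6:94705151-94705819 (−15.4) was −1.53 with 50% cover, chr7:139014149-139014746 (−12.6) was −19.2 without geriatric villus replicate 1, and chr4:143622337-143622962 (13.3) was 4.69 without geriatric villus replicate 3 and 8.82 without adult crypt replicate 2. Sequence windows were not run. Short colon lists limit what an absent colon peak shows.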
